A study of Mus musculus with 6 samples.

Results

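Scavenger receptors are surface and lysosomal membrane proteins grouped by what they bind rather than by descent: modified lipoproteins, lipids, heat shock proteins and the surfaces of dying cells. They are best known from macrophages and endothelium, where they take up lipoproteins and clear cell debris, and several also carry cholesterol or fatty acids into other cell types. The 8 genes described here are Scarf1, Scarf2 and Megf10 (receptors with EGF-like repeats), Scarb1, Scarb2 and Cd36 (the CD36 family), Msr1 (the macrophage class A receptor) and Stab1 (stabilin-1), among 35905 genes in the libraries. They were chosen by family name around Scarf1, and Scarf1 itself was selected on its difference between the lines in these same libraries. Its values are therefore a description with no test.

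The libraries came from EO771 mouse mammary tumor cells in culture, in 2 groups of 3: EO771-tdT-Parental, whose titles also carry the tag Ac6, and EO771-tdT-LM2. Both groups have the genotype label WT and the tdT tag in their name. Cells were grown for 48 h in medium with 10% serum, to 75% confluence. The labels do not say what Ac6 means, how LM2 was derived, whether it is 1 clone, or whether the 3 libraries of a line are separate cultures. The p-values therefore measure the spread between libraries, which may be technical. The total of estimated counts per library ran from 33922699 to 45849019. Of 13247 genes tested with edgeR's quasi-likelihood test, 62.4% passed an adjusted p of 0.05, 31.4% higher and 31.1% lower in LM2, and in 67.0% the libraries of the lines did not overlap. Of 8 mammary epithelial markers, Krt8 carried nearly all of the summed level (420 ± 6.62 CPM, SD, n = 3, in Parental and 568 ± 10.4 in LM2; CPM scales counts to library size), while Krt18, Krt19 and Cdh1 were below 0.2 CPM in both lines. Epcam, which encodes an epithelial adhesion protein, averaged 0.154 ± 0.0503 CPM across Parental libraries and 15.0 ± 0.360 CPM across LM2 libraries. Without Krt8 the summed level of these markers was 1.87 to 2.35 CPM in Parental and 23.3 to 25.3 CPM in LM2. Among the 8 markers 4 were tested, with 3 higher in LM2, 0 lower and 1 not passing.

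Scarf1 (ENSMUSG00000038188, chromosome 11), an endothelial receptor for modified lipoproteins that also takes part in clearing dying cells, was almost silent in Parental and readily detected in LM2. The Parental libraries held 18, 11 and 11 estimated counts and the LM2 libraries 1472, 1588 and 1823. Per transcript length, these were 0.216, 0.167 and 0.149 TPM (a level scaled to transcript length and to the library) in Parental and 23.6, 26.4 and 26.7 TPM in LM2. Every LM2 library was far above every Parental library. On the CPM scale the means were 0.324 ± 0.0641 and 45.8 ± 2.80 (SD, n = 3). The fitted log2 fold change was 7.12, or 139-fold, and ran from 6.999 to 7.300 with 1 library left out. Only 25 of the 13247 tested genes had a larger log2 fold change. By TPM, Scarf1 moved from above 4.6% of tested genes in Parental to above 56.6% in LM2. The authors' deposited table lists a log fold change of 6.94 for Scarf1.

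Nearly all Scarf1 counts in LM2 fell on 1 transcript of 2887 bases, with 97.7%, 96.9% and 99.4% of the gene's counts. In Parental the shares were 100%, 89.9% and 100%, from 11 to 18 counts each. No gene in the annotation overlaps Scarf1, and none of its 31-base words occurs in transcripts of other genes.

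**Figure D1:**
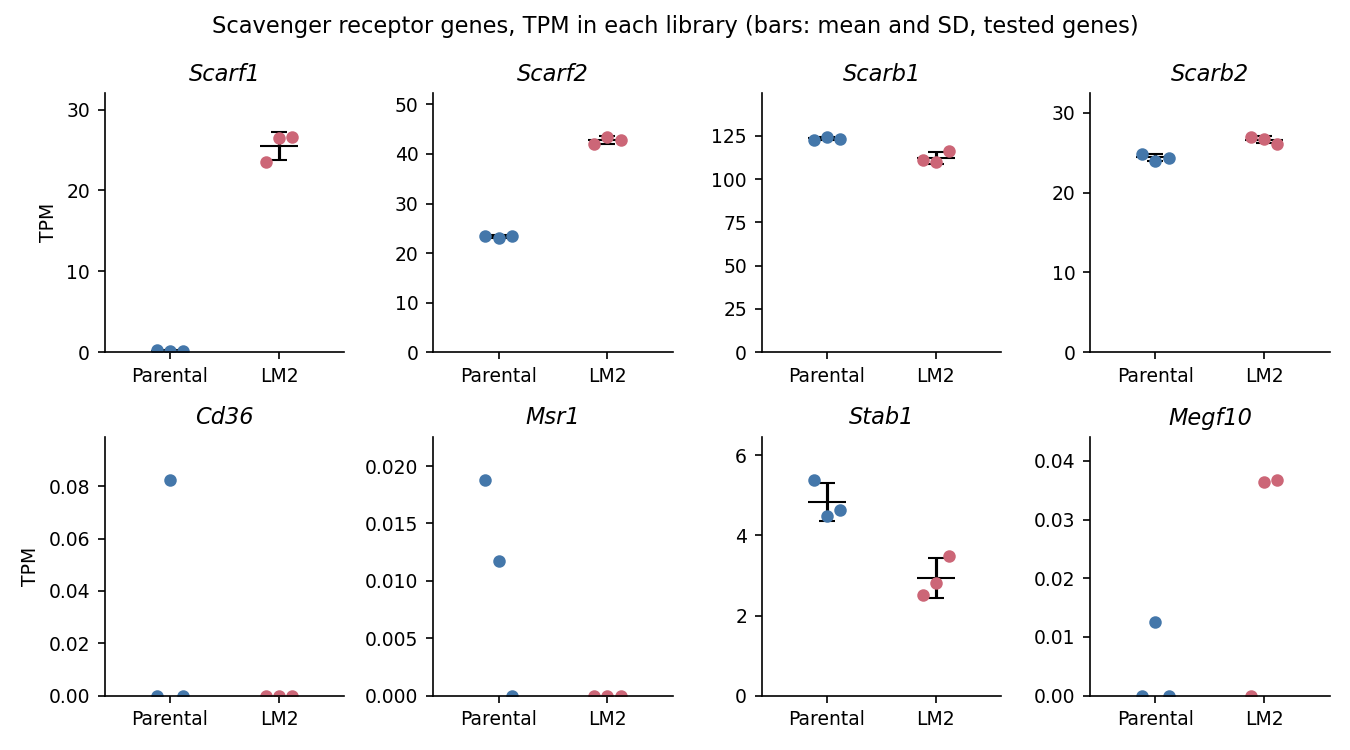
TPM of the 8 genes in each library, with 1 panel per gene and its own vertical scale from 0; points are libraries, and bars are the mean and SD of the 5 tested genes. Scarf1 lies at 0.149 to 0.216 TPM in Parental and 23.6 to 26.7 TPM in LM2, while Cd36, Msr1 and Megf10 stay below 0.1 TPM.

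Genes beside Scarf1 on chromosome 11 did not show changes of that size. On one side, Slc43a2, an amino acid transporter, had a log2 fold change of 0.01 (edgeR adjusted p = 0.871), and beyond it Pitpna and Inpp5k were higher in LM2 by 0.29 and 0.30. On the other side, Rilp, which recruits motors to late endosomes, rose by 1.18 ± 0.36 (SE; adjusted p = 0.00683), at levels of only 0.367 and 0.853 CPM. Prpf8, a core splicing factor, fell by 0.17 (adjusted p = 0.0120), and Tlcd2 did not pass (0.25, adjusted p = 0.268).

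**Figure D2:**
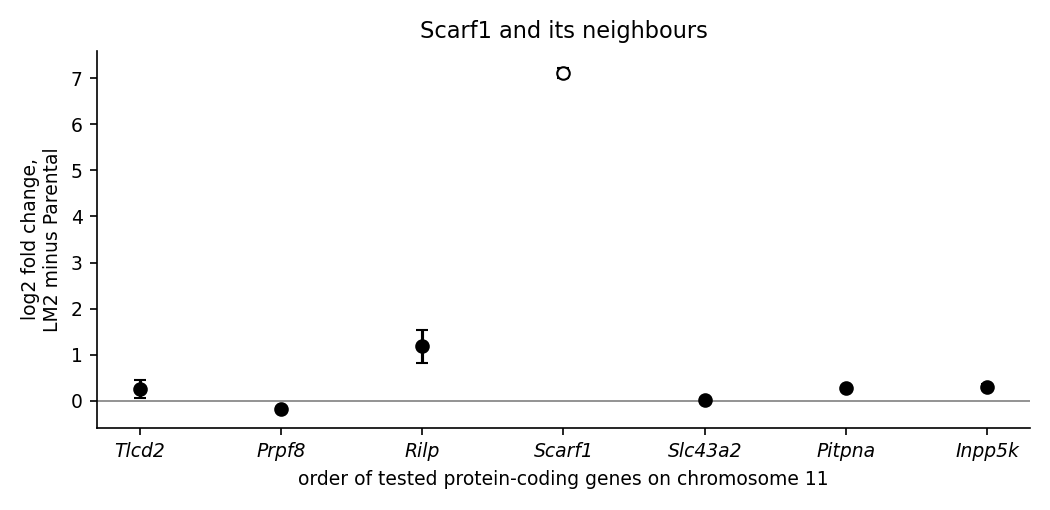
Log2 fold change (LM2 minus Parental) of Scarf1 and of the 3 nearest tested protein-coding genes on each side, in annotation order. Error bars are the SE worked back from the test statistic, which for Scarf1 does not cover the counting error of its few Parental counts. Scarf1 stands at 7.12 and the highest neighbour, Rilp, at 1.18.

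The named genes whose levels were most like those of Scarf1, by Euclidean distance of log2 CPM over the 6 libraries, were Rcn3 (1.27), Il2rg (1.31), Slit1 (1.32), Actg2 (1.37) and Acta1 (1.53). Rcn3, a calcium-binding protein of the endoplasmic reticulum, went from 0.311 to 28.4 CPM. Il2rg, the common cytokine receptor chain, went from 0.186 to 35.7 CPM, and Slit1, an axon guidance ligand, from 0.238 to 35.4 CPM. The smooth muscle actin Actg2 went from 0.252 to 44.7 CPM and the skeletal muscle actin Acta1 from 0.556 to 47.0 CPM. Of Il2rg's 31-base words 28.7% occur in transcripts of other genes, as do 14.3% of Rcn3's, on the reverse strand. These distances carry no test.

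Scarf2 and Stab1, the other members with the larger changes, moved in opposite directions, and their promoters are shown for that reason. RefSeq's promoter table (GRCm38.p6) held 4 of the 8 genes, Scarf2, Stab1, Scarb2 and Cd36, and did not hold Scarf1. Each line below gives the 250 bases before the start, 5′ to 3′ on the gene's strand, with each CG dinucleotide in capitals; Scarf2 lies at chr16:17797032-17797281 (plus strand) and Stab1 at chr14:31168642-31168891 (minus strand).
Scarf2: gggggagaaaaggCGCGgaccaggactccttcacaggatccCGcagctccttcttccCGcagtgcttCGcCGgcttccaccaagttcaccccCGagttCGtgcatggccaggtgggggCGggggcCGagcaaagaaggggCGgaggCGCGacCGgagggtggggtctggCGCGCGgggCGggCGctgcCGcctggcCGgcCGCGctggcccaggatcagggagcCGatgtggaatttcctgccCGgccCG
Stab1: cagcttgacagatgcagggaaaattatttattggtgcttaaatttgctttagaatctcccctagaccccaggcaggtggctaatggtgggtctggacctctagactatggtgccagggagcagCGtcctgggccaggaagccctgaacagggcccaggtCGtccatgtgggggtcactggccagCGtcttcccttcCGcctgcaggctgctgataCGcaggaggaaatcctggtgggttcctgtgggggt
The Scarf2 window holds 26 CG and is 72.0% G or C, with more CG than 90.4% of 32851 promoter windows of that length. The Stab1 window holds 5 CG and is 57.2% G or C, with more CG than 44.4% of windows. At least 1 CG is found in 92.1% of windows, with a median of 6. The letters TATAAA were searched on both strands and occur in neither window shown, against 12.4% of all windows. The Scarb2 window, not shown, holds 19 CG, more than 80.3% of windows. That of Cd36, also not shown, holds 3 CG, more than 29.0% of windows. A link between CG count and the change between the lines was not tested.

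Among the 7 genes other than Scarf1, 4 passed the filter on low counts and were tested. All 4 passed the adjusted threshold, where 62.4% of all tested genes did: Scarf2 and Scarb2 were higher in LM2, and Scarb1 and Stab1 were lower. None of the 4 had overlapping libraries between the lines, against 67.0% of all tested genes without overlap. The authors' deposited table compares the same lines, is no independent support, and lists the same directions. Its log fold changes are 0.94 for Scarf2, 0.09 for Scarb2, -0.17 for Scarb1 and -0.75 for Stab1. For Stab1 the main fit here gave -1.10, and -0.77 with offsets for effective length. The log base and direction of the authors' deposited table are not written in it and were read from its closeness to the fitted values (r = 0.957 across 10557 genes, which are not independent replicates).

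**Figure D3:**
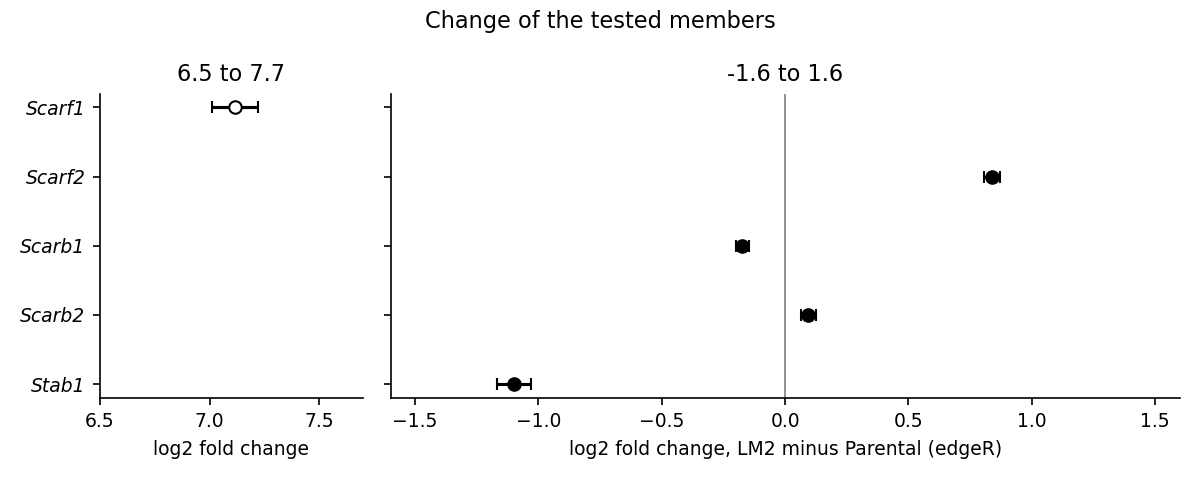
Log2 fold change (LM2 minus Parental) of the 5 tested genes, in panels with different scales. Error bars are the SE worked back from the test statistic, which for Scarf1 does not cover the counting error of its few Parental counts. Scarf1 lies at 7.12, Scarf2 at 0.84, Scarb2 at 0.09, Scarb1 at -0.17 and Stab1 at -1.10.

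Scarf2 (chromosome 16), a close relative of Scarf1, was already well expressed in Parental, at 23.5, 23.1 and 23.4 TPM, and stood at 42.0, 43.5 and 42.9 TPM in LM2. The LM2 libraries were all higher and each line varied little. On the CPM scale it rose 1.79-fold, a log2 fold change of 0.84 ± 0.03 (SE; edgeR adjusted p = 1.55e-15). This was larger in size than the change of 88.7% of tested genes. The ratio of Scarf1 to Scarf2 in TPM was 0.00760 in Parental and 0.597 in LM2.

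Megf10 (chromosome 18), an engulfment receptor of astrocytes and muscle satellite cells, had 0, 2 and 0 counts in Parental and 0, 6 and 4 in LM2. The ratio of the summed counts, scaled by library totals, was 5.75 with an exact 95% interval of 1.23 to 54.0, which covers counting error only. It was too low to be tested. The 8 markers of muscle satellite cells and astrocytes were led by Slc1a3. They summed to 0.0743 to 0.330 CPM in Parental and 0.415 to 0.472 CPM in LM2, with Myf5, Myod1 and Aqp4 at 0. None of the 8 passed the filter for the test. Slc1a3 averaged 0.115 ± 0.135 CPM (SD, n = 3) in Parental and 0.185 ± 0.0836 CPM in LM2.

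Scarb1 (chromosome 5), the HDL receptor for selective uptake of cholesteryl esters, was the most abundant member in both lines. It stood at 122.9, 124.6 and 123.4 TPM in Parental and 110.8, 109.7 and 116.1 TPM in LM2. The LM2 libraries were lower without overlap, but by a small amount: 1.13-fold on the CPM scale, a log2 fold change of -0.17 ± 0.03 (SE; edgeR adjusted p = 4.35e-06). This change was larger in size than that of 38.2% of tested genes.

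Scarb1 has alternative ends. Exon 12 of 13 in the 2521-base transcript is absent from the 2367-base transcript. Its 129 bases (minus strand, from the GENCODE M21 transcripts) encode the last residues of the SR-BI form, whose tail binds the adaptor PDZK1. Pdzk1 itself held only 3.42 estimated counts over the Parental libraries and 1.07 over the LM2 libraries, and was not tested. The exon is shown for the end that it encodes, with the stop codon in capitals.
Scarb1 exon: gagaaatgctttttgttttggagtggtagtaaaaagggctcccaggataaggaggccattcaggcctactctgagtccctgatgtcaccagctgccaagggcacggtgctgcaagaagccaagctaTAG
The 2367-base transcript, the form known as SR-BII, took 8.25%, 8.61% and 10.3% of the Scarb1 counts in Parental and 11.7%, 11.7% and 13.1% in LM2. The SR-BI transcript took 89.1 ± 1.17% (SD, n = 3) in Parental and 85.6 ± 0.610% in LM2. The libraries of the lines did not overlap for either transcript, and the exact permutation p was 0.1, the smallest that 3 against 3 allows. Of the 14 member transcripts tested for usage, 6 did not overlap, also including transcripts of Scarf2 and Stab1, against 17.7% of all transcripts tested. Shares within a gene are tied, since 1 falls when another rises, so these transcripts are not independent. With edgeR's diffSpliceDGE, which called 0.714% of 36294 tested transcripts, the usage change of the SR-BII transcript did not pass (log2 0.43, adjusted p = 0.765, unadjusted p = 0.0194). With limma's diffSplice, which called 3.06%, both passed (adjusted p = 0.0218 for SR-BII and 0.0194 for SR-BI). None of the 14 passed with edgeR, 1 was below an unadjusted p of 0.05, and 2 passed with limma. These Scarb1 transcripts were singled out after their values were seen. In simulated data, diffSpliceDGE recovered 30.5% of 200 transcripts whose abundance was changed 4-fold, and 38.0% of the 108 with a mean of at least 500 counts. The share of such a transcript within its gene changes by less than 4-fold. Smaller changes in abundance and limma's diffSplice were not simulated.

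**Figure D4:**
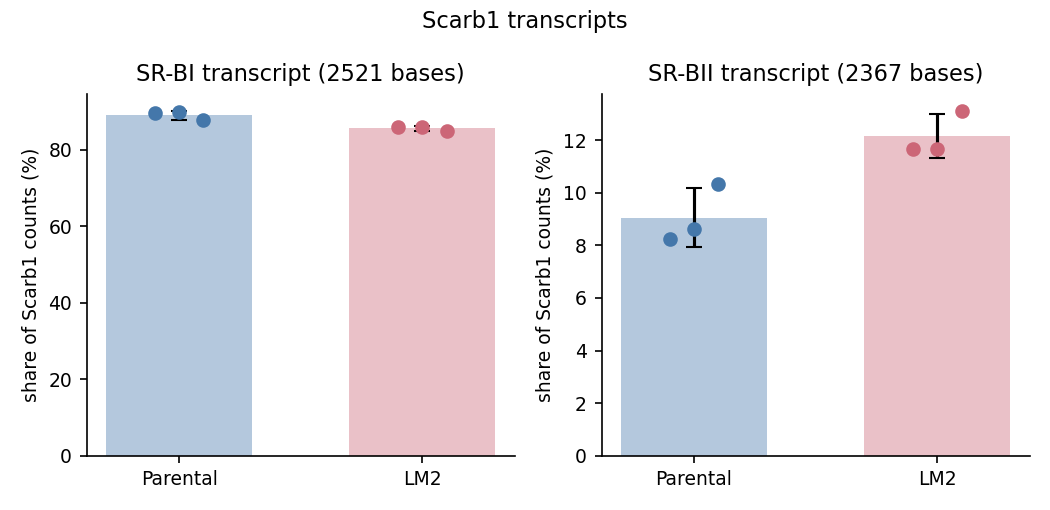
Share of the Scarb1 estimated counts (%) taken by the SR-BI transcript (2521 bases) and the SR-BII transcript (2367 bases), with different vertical scales from 0; points are libraries, bars the mean and error bars the SD (n = 3). The SR-BII transcript lies at 8.25% to 10.3% in Parental and 11.7% to 13.1% in LM2.

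Scarb2 (chromosome 5), or LIMP-2, an abundant lysosomal membrane protein, differed little. It stood at 24.8, 24.0 and 24.4 TPM in Parental and 27.0, 26.7 and 26.1 TPM in LM2. Its log2 fold change was 0.09 ± 0.03 (SE; edgeR adjusted p = 0.0118), or 1.07-fold on the CPM scale. The call was lost without Parental replicate 2 (adjusted p = 0.0587) and without LM2 replicate 2 (0.0514), and also with no filter on low counts (0.0882) and with offsets for effective length (0.0689).

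Cd36, the fatty acid and thrombospondin receptor, had 1 count in Parental and 0 in LM2. Msr1 had 2, 1 and 0 counts in Parental and 0 in LM2. A count of 0 allows up to 3 counts over a group, which is 0.0282 CPM in LM2. The summed Parental counts did not exceed 3 either, so no fold is given. Neither was tested. The 8 adipocyte markers summed to 1.27 to 1.46 CPM in Parental and 0.812 to 1.07 CPM in LM2, led by Lpl. Only Lpl, 1 of the 8, was tested, and it did not pass (log2 -0.44, edgeR adjusted p = 0.188).

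Stab1 (chromosome 14), which takes up SPARC and other ligands in sinusoidal endothelium and macrophages, was the member that fell most. It had 16.7, 16.4 and 16.1 CPM in Parental and 7.55, 8.12 and 7.26 CPM in LM2. It fell 2.15-fold, a log2 fold change of -1.10 ± 0.07 (SE; edgeR adjusted p = 5.58e-12). Per length the gap was smaller: 5.38, 4.49 and 4.63 TPM in Parental against 2.50, 2.81 and 3.48 TPM in LM2, and the log2 fold change with offsets for effective length was -0.77 (adjusted p = 0.000601). The 7999-base transcript that held most Stab1 counts stood at 2.57 ± 0.126 TPM in Parental and 1.13 ± 0.0714 TPM in LM2 (SD, n = 3).

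Stab1 is the member that overlaps another gene, Nt5dc2 on the opposite strand, which fell from 58.5 ± 1.68 to 32.6 ± 1.27 CPM (edgeR adjusted p = 1.08e-13). Of Stab1's 31-base words, 1.59% occur in other genes on the reverse strand. The labels do not say how the counting treated strand, and the part of Nt5dc2 in the Stab1 result was not tested. Of 12 endothelial markers, 6 were tested, with 2 higher, 1 lower and 3 not passing, where 62.4% of all tested genes passed. Lyve1 rose from 0.120 to 1.83 CPM (edgeR adjusted p = 2.24e-09) and Cdh5 from 0.180 to 0.668 CPM, while Egfl7 fell from 18.1 to 8.88 CPM. Pecam1, at 3.49 and 3.59 CPM, was among the 3 that did not pass. The summed endothelial level was 23.2 to 24.4 CPM in Parental and 16.8 to 17.8 in LM2, and without Egfl7 5.23 to 6.31 and 8.13 to 8.65, with Emcn at 0. The summed level of 14 macrophage markers was 4.48 to 4.88 CPM in Parental and 3.53 to 4.24 in LM2, with Adgre1, C1qa, C1qb and Marco at 0 in every library. Both tested macrophage markers passed, where 62.4% of all tested genes did, and they moved in opposite directions. Cd68 rose from 1.75 to 2.68 CPM and Lyz2 fell from 2.51 to 0.831 CPM (edgeR adjusted p = 9.39e-07). Without Cd68 the macrophage sum was 2.84 to 3.10 CPM in Parental and 1.01 to 1.33 CPM in LM2. Lyz2 made up most of that remainder in both lines. The part of these endothelial and macrophage markers in the results was not tested. In bulk RNA, fewer cells of a type and less RNA per cell cannot be told apart.

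The order of the members changed through Scarf1 and Scarf2. In Parental, Scarb1 was followed by Scarb2 (24.4 ± 0.423 TPM) and Scarf2 (23.3 ± 0.225), then Stab1 and Scarf1. In LM2, Scarb1 was followed by Scarf2 (42.8 ± 0.736 TPM), then by Scarb2 (26.6 ± 0.455) and Scarf1 (25.5 ± 1.73), which did not differ beyond their spread, and Stab1. The sum over the 8 genes was 176.4 ± 0.468 TPM in Parental and 210.1 ± 4.76 TPM in LM2. Scarb1 made up 70.1% of that sum in Parental and 53.4% in LM2, and Scarf1 0.100% and 12.2%.

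**Figure D5:**
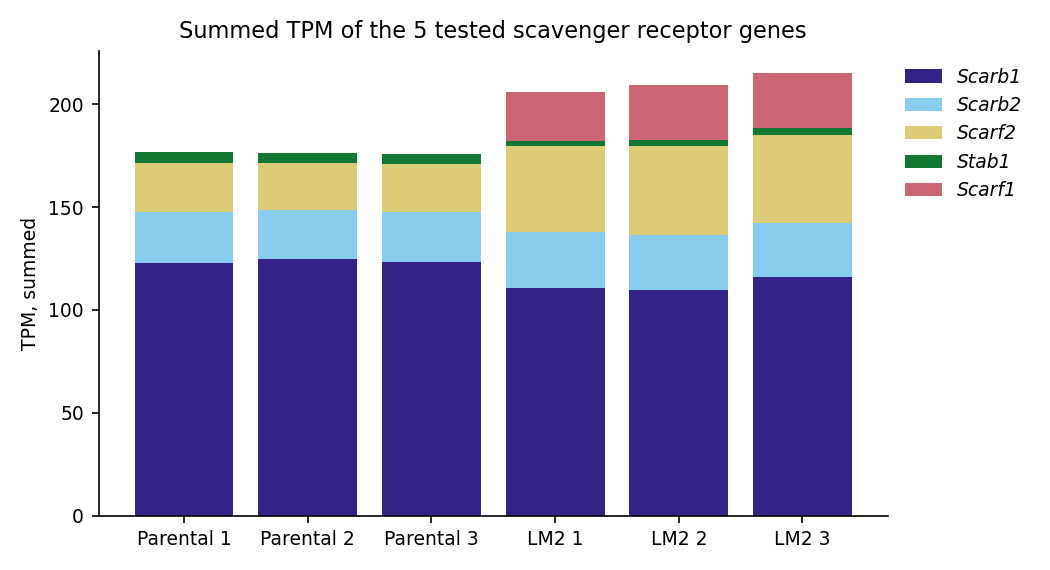
Stacked TPM of the 5 tested genes in each library, on an axis from 0; the 3 untested genes are too low to be seen. The Scarf1 segment is visible in the LM2 libraries, where it averages 25.5 TPM, and cannot be seen in Parental at 0.177 TPM.

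Of 19 other scavenger receptors listed, 14 were tested, 5 rose and 3 fell, where 31.4% of all tested genes rose and 31.1% fell. Their median log2 fold change was 0.06 against -0.00 over all tested genes. Scara5, a ferritin receptor, rose from 1.37 to 5.51 CPM, by 2.03 on the log2 scale (edgeR adjusted p = 2.16e-08), and Lgals3bp rose from 57.5 to 121 CPM. Lrp2, or megalin, fell from 172 to 85.9 CPM (adjusted p = 0.00224), and Megf6 fell from 6.57 to 4.67 CPM. Lrp1, the large endocytic receptor, had 369 and 284 CPM and did not pass (adjusted p = 0.0586).

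Of 13 ligands of these receptors, 6 were tested, 1 rose and 4 fell (median -0.14), against 31.4% and 31.1% of all tested genes. The calreticulin gene Calr, whose product is a ligand of Scarf1, fell from 831 to 764 CPM (edgeR adjusted p = 3.70e-04), the chaperone gene Hsp90b1 from 988 to 887 CPM, and Chid1, whose product binds stabilin-1, from 46.0 to 40.3 CPM. Sparc, a ligand of Stab1, was at 1208 and 1268 CPM (log2 0.07, adjusted p = 0.00842), a call lost without Parental replicate 2 or 3 and with no filter on low counts. The complement genes C1qa and C1qb were at 0.

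In the engulfment list, 24 of 29 genes were tested, 17 rose and 1 fell, with a median log2 fold change of 0.18. Of all tested genes 31.4% rose and 31.1% fell. Several of the rises in the list were small or at low levels, and the split was not tested. Mertk, a receptor for dying cells, rose from 2.75 to 5.54 CPM (log2 1.01, edgeR adjusted p = 8.43e-07). Itgb3, an integrin chain used in the same uptake, rose from 14.7 to 22.7 CPM (adjusted p = 3.22e-09). Abca7, a lipid transporter, fell from 44.9 to 34.6 CPM (adjusted p = 5.90e-05).

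Among genes of lipoprotein and cholesterol handling, 22 of 25 were tested, 9 rose and 7 fell (median 0.02). The shares over all tested genes were 31.4% and 31.1%. Soat1, which esterifies cholesterol, rose from 74.8 to 151 CPM (edgeR adjusted p = 2.84e-18). The phospholipid transfer protein gene Pltp fell from 99.2 to 57.5 CPM (adjusted p = 5.39e-15), and the oxysterol receptor gene Nr1h3 from 22.8 to 14.4 CPM.

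Of 29 fatty acid uptake genes, 21 were tested, 8 rose and 6 fell (median 0.03), against 31.4% and 31.1% of all tested genes. The lipid droplet gene Plin2 rose from 79.7 to 130 CPM (edgeR adjusted p = 4.96e-15) and the kinase gene Lyn from 25.6 to 36.0 CPM. The acyl-CoA synthetase genes Acsl4 and Acsl6 fell, from 35.1 to 25.8 CPM and from 20.9 to 15.5 CPM. Fyn, another Src family kinase, had 78.3 and 79.9 CPM and did not pass (adjusted p = 0.464).

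All 29 lysosomal genes listed were tested; 7 rose and 11 fell (median -0.06). Igf2r, the mannose 6-phosphate receptor, rose from 27.6 to 48.8 CPM (edgeR adjusted p = 8.68e-13), and Lamp2 from 69.7 to 91.3 CPM. Mitf and Tfeb, transcription factors of lysosomal genes, fell from 23.6 to 16.3 CPM and from 14.6 to 10.3 CPM. These lists are described by their counts and medians, beside the 31.4% of all tested genes that rose and the 31.1% that fell.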

How the data were processed

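RNA from 6 libraries was grouped by the sample titles. The authors deposited, per library, estimated counts, TPM, and lengths and effective lengths in bases for 117486 transcripts, with kallisto 0.46.2 and build GRCm39 named in the submitters' processing notes, beside edgeR 3.32.1. The authors also deposited a table of log fold changes (taken here as log2) for 11005 rows. The strand setting is not given in the sources used here.

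Transcripts were assigned to genes with GENCODE M21 (GRCm38), which matched 116408 of them (99.1%); the others held 0.426% to 0.448% of counts. M21 gave names, gene types, gene order and overlaps, and transcript sequences and exons; its gene coordinates are not printed, and promoter positions are those of RefSeq's table (GRCm38.p6). Counts and TPM were summed per gene, and counts were rounded. The main test was edgeR 4.0.16 (quasi-likelihood, robust, filterByExpr, TMM, in R 4.3.3) with Benjamini-Hochberg adjustment over all 13247 genes tested, at 0.05. Each SE was worked back from this test, as the size of the log2 fold change over the square root of the F statistic. Alternatives used DESeq2 1.42.0 and limma 3.58.1, other scalings and filters, effective length offsets, a replicate block, and each library left out. Both fits were tested on simulated data. Depth limits precision at low counts, and floors of 3 counts cover counting error only.

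The members and lists were chosen with earlier results of these data known. Named were all members; from each list that is no marker list, up to 2 called genes each way by size of change among genes reaching 5 CPM in either line, and the most abundant gene not passing; the most abundant gene of each marker list; the 5 genes most like Scarf1; and its 3 neighbours on each side. Calr, C1qa, C1qb, Epcam, Krt18, Krt19, Cdh1, Emcn, Pecam1, Lyve1, Cdh5, Lyz2, Adgre1, Marco, Pdzk1 and Nt5dc2 were named after their values were seen. Some genes that the rule names are not reported here.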

Additional observations from a re-analysis of the deposited data

How the results depend on the processing

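Over 15 alternatives, Scarf2 (log2 0.81 to 0.84), Scarb1 (-0.20 to -0.16) and Stab1 (-1.15 to -0.77) kept their direction and passed. Scarb2 ranged from 0.071 to 0.105 on the log2 scale and was positive throughout, but did not pass with no filter on low counts (0.071, adjusted p = 0.0882) or with effective length offsets (0.090, adjusted p = 0.0689), so that 1 member other than Scarf1 was called higher under each, in place of 2; the cause was not tested. With 1 library left out, its log2 fold change ran from 0.078 to 0.105, the members called higher from 1 to 2, and the Scarf1 log2 fold change from 6.999 to 7.300, the highest without Parental replicate 1. Transcripts called for usage numbered 259 with edgeR and 1111 with limma's diffSplice. Replicate numbers were not taken as pairs: deviations of same-numbered libraries correlated at -0.078, 0.045 and 0.015. With the replicate block, 8250 genes were called against 8272 and 190 transcripts for usage against 259, and no member's call changed. Among the lists, no ligand was called higher (0 against 1) in 3 alternatives, 2 engulfment genes against 1 were lower in 6, and 3 fatty acid genes against 6 were lower with effective length offsets. Scarf1 in Parental rests on 40 counts, and Cd36, Msr1 and Megf10 were below the filter for the test.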
